A study of Mus musculus with 9 samples.

Results

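The genes followed here were 10 immediate-early genes: the AP-1 genes Fos, Fosb, Fosl2, Jun, Junb and Jund, the zinc finger genes Egr1 and Egr2, and Arc and Ier2. They were chosen by name, and a probe set counted for a gene only where the platform annotation gave that gene alone. These 10 genes had 101 of the 1256831 probe sets on the array. Of these, 88 had a mean over all arrays above the median of all probe sets and 13 did not. Each of the 10 genes kept at least 3 probe sets, so all 10 were among the 16854 genes tested.

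RNA had been hybridised to exon arrays, which read a transcript through many short probe sets, from cerebral cortex of mouse embryos at E13.5. The 3 groups were Sfpq-/- embryos, Sfpq+/- embryos and controls labelled wild type, with 3 arrays each and 1 array per sample. Sfpq encodes a nuclear protein that binds RNA and takes part in transcription and splicing. The titles call the first 2 groups homologous and heterologous knock-outs, and the labels name no deleter line, allele design, strain, litter or batch. The extraction notes name Sfpq+/- in 2 places and Sfpq-/- in none, so the groups were taken from titles and genotype fields. No label says whether embryos of a group shared a litter, so p-values measure only the spread between these 9 samples.

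Immediate-early genes are switched on within minutes of a stimulus, by transcription factors already present in the cell, such as SRF with its ternary complex factors and CREB. AP-1 is a dimer of leucine zipper proteins: Jun proteins pair with each other or with Fos proteins, whereas Fos proteins need a Jun partner, and ATF and MAF relatives can take a partner's place. In neurons these genes are known as markers of recent activity, and Jun also answers to stress kinases of the JNK family.

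The stretches just upstream of 4 of the genes are shown because Jun was the AP-1 gene that fell, and Junb, Jund and Fos are relatives that were not called. Each runs 5′ to 3′ over the 150 bases before the gene start given by RefSeq on GRCm38.p6. Capitals mark matches on either strand to the motifs named after the sequences, other than GCGNGGGCG and GGGCGG.
Jun, chr4:95052223-95052372, minus strand: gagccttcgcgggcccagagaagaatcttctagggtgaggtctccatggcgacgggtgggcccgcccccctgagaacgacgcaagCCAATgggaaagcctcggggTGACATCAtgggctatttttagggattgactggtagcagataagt
Junb, chr8:84978749-84978898, minus strand: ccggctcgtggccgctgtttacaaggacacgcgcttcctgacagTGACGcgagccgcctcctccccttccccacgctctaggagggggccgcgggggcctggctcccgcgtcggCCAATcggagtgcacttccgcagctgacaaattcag
Jund, chr8:70697589-70697738, plus strand: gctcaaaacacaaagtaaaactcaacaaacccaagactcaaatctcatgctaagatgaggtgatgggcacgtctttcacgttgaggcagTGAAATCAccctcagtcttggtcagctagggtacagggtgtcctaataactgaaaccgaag
Fos, chr12:85473740-85473889, plus strand: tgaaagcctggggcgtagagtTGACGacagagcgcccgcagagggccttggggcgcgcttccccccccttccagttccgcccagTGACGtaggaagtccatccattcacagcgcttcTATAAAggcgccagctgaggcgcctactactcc
Jun holds TGACATCA with its first base at position -45 relative to the start, and Jund holds TGAAATCA at -61. Both are matches to TGANNTCA, the spaced form of the AP-1 and CREB site, which 8.37% of the 32851 RefSeq windows of this length hold. TGACG, the core of the CREB site and a part of some TGANNTCA matches, occurs at -106 in Junb and in 2 places in Fos, and in 13.3% of all windows. CCAAT occurs at -65 in Jun and at -36 in Junb, and in 24.5% of all windows, and TATAAA at -33 in Fos and in 7.57% of all windows. TGANTCA, the compact AP-1 site held by 4.24% of all windows, and the CArG box bound by SRF, held by 0.916%, are not among these letters. Windows were found for 7 of the 10 genes, and among them only Egr2 had matches to the CArG box, in some of its windows. Bases farther upstream than 150 were not searched. GCGNGGGCG, an Egr site found in 3.81% of all windows, and GGGCGG, a GC box that can overlap it and is found in 28.6%, were also searched and are not capitalised. GGGCGG or its reverse occurs in 1 place each in Jun and Fos and in neither Junb nor Jund. The matches describe these letters and were not tested as binding sites.

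Sfpq itself averaged 8.98 ± 0.27 in Sfpq-/- cortex, 10.25 ± 0.24 in Sfpq+/- cortex and 10.14 ± 0.23 in control cortex (log2 gene level, SD, n = 3 each). Its level therefore separates the arrays labelled Sfpq-/- from the rest but does not check the label Sfpq+/-. Array medians lay between 5.648 and 5.697, and the number of arrays limits the precision: the median standard error of a difference was 0.096 on the log2 scale. All 9 radial glia and all 9 cortical neuron markers passed the filter on dim probe sets. So did all 11 microglia and macrophage, all 8 meningeal, all 7 choroid plexus and dorsal midline and 8 of 9 ganglionic eminence markers. The filter therefore shows signal for the markers but cannot tell cortex from other tissue. Of 11 microglia and macrophage markers, 8 rose in Sfpq-/- against control cortex, with a summed linear signal of 3215 to 3322 in Sfpq-/-, 2607 to 2813 in Sfpq+/- and 2616 to 2713 in control cortex. Of 5 intermediate progenitor markers, 3 fell, with sums of 5665 to 6274 in Sfpq-/-, 7672 to 8615 in Sfpq+/- and 7265 to 7446 in control cortex. Of 9 cortical neuron markers, 2 fell against control cortex, Neurod6 by 0.41 and Fezf2 by 0.49 on the log2 scale. The median change over the 9 was -0.0095. Their sums were 17691 to 18639 in Sfpq-/-, 20164 to 22378 in Sfpq+/- and 18885 to 19824 in control cortex. Of 9 vascular, 8 ganglionic eminence and 7 choroid plexus and dorsal midline markers tested, 1 each rose: Rgs5, Gad1 and Rspo3. The median changes of these lists were 0.10, -0.02 and -0.05. No radial glia, meningeal or erythroid marker passed. Of all genes tested, 5.98% passed as higher and 6.12% as lower in this comparison. In bulk tissue, fewer cells of a type and less RNA per cell cannot be told apart. Xist signal, which marks female tissue, was high on Sfpq-/- array 1 and on control arrays 1 and 2 and low on all Sfpq+/- arrays, so embryo sex was not balanced between the groups.

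Jun was lower in Sfpq-/- cortex than in both other groups, Arc was lower than in Sfpq+/- cortex, and none of the 10 genes passed as higher. Against control cortex, Jun fell, 0 of the 10 rose and 9 did not pass the threshold (limma, adjusted p under 0.05). Of all genes tested, 12.1% passed in this comparison, 6.12% in the lower direction, so 1 of 10 is near that background. The median log2 change was 0.03 over the 10 genes and 0.03 over all genes. The Sfpq-/- arrays did not overlap the control arrays for 3 genes, Jun and Arc below and Fosl2 above, and for 26.9% of all genes. Against Sfpq+/- cortex, Jun and Arc fell and 8 genes did not pass, where 11.8% of all genes passed, 7.25% as lower. The arrays of Jun and Arc did not overlap there, as for 26.9% of all genes. Sfpq-/- arrays enter both of these comparisons, so they are not independent of each other. In Sfpq+/- against control cortex 0 of the 10 genes passed by limma, as did 0% of all genes, so that count says nothing about the 10. None had separate arrays (background 12.5%), and 0 of 10 had an unadjusted p under 0.05, where 4.24% of all genes did.

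**Figure D1:**
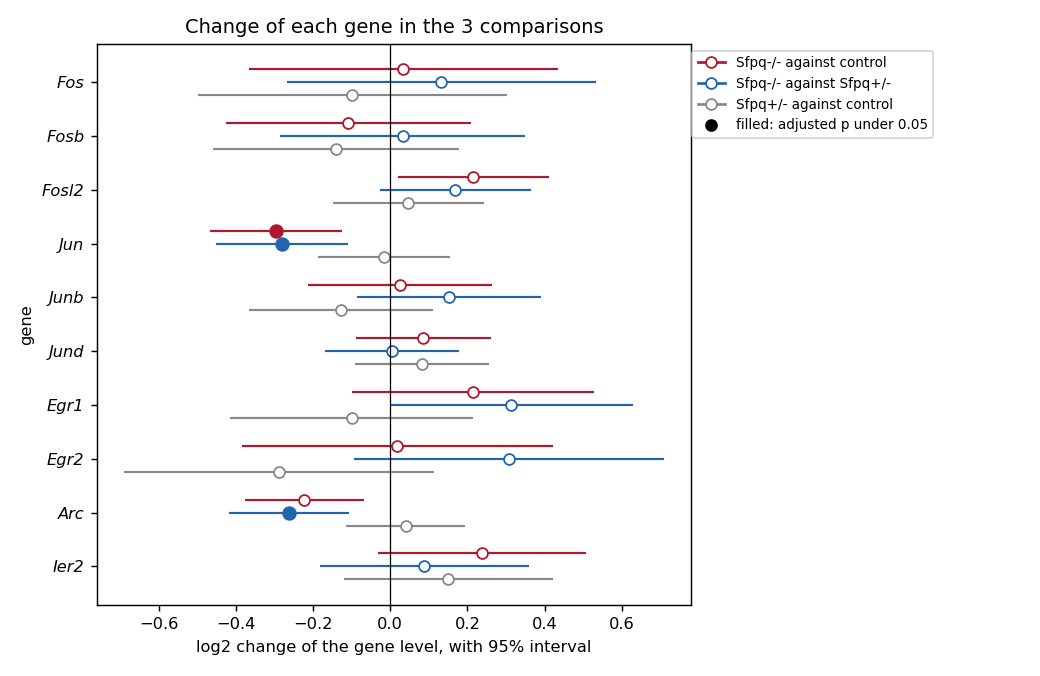
Log2 change of the gene level (horizontal axis) with its 95% interval for each gene (vertical axis) in Sfpq-/- against control, Sfpq-/- against Sfpq+/- and Sfpq+/- against control cortex. Filled points have an adjusted p under 0.05 and are Jun at -0.30 and -0.28 and Arc at -0.26, whereas most other intervals span 0.

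Jun, the main transactivating partner in AP-1, had log2 gene levels of 10.20, 10.35 and 10.19 in Sfpq-/- cortex, 10.51, 10.49 and 10.58 in Sfpq+/- cortex and 10.45, 10.59 and 10.59 in control cortex. All 3 Sfpq-/- arrays lay below all 6 others, while the Sfpq+/- and control arrays overlapped. Jun fell by 0.30 on the log2 scale against control cortex (SE 0.0776, 95% interval -0.47 to -0.13, limma adjusted p = 0.0295), which is 1.23-fold lower. It fell by 0.28 against Sfpq+/- cortex (SE 0.0776, 95% interval -0.45 to -0.11, limma adjusted p = 0.0385). Sfpq+/- and control cortex differed by -0.02 (95% interval -0.19 to 0.15, limma adjusted p = 0.971).

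The calls for Jun are close to the threshold. Leaving out 1 array kept the change against control between -0.35 and -0.27, but the adjusted p was 0.121 without control 2, 0.099 without control 3, 0.12 without Sfpq-/- 1 and 0.0593 without Sfpq-/- 3. Against Sfpq+/- cortex the change stayed between -0.33 and -0.25, and the adjusted p was 0.103, 0.0834 and 0.134 without Sfpq+/- 1, 2 and 3, and 0.148 and 0.0895 without Sfpq-/- 1 and 3. With the 6 compared arrays alone the adjusted p was 0.0767 against control and 0.0706 against Sfpq+/- cortex. The call against Sfpq+/- cortex also ended with no filter on dim probe sets (adjusted p = 0.0589), with at least 1 kept probe set (0.0603) and with an Xist term for embryo sex (0.0868). The median of the probe sets in place of their mean gave a change of -0.43 against control with an adjusted p of 0.0711, and -0.38 against Sfpq+/- with an adjusted p of 0.118.

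Junb and Jund, the Jun paralogs, passed in none of the 3 comparisons. Junb, a weaker activator that can restrain Jun, had levels of 8.15, 8.01 and 8.36 in Sfpq-/- cortex, 7.87, 8.06 and 8.13 in Sfpq+/- cortex and 8.06, 8.11 and 8.27 in control cortex. Jund, which many cells hold at a steady level, had 8.58, 8.64 and 8.57 in Sfpq-/- cortex, 8.57, 8.69 and 8.51 in Sfpq+/- cortex and 8.61, 8.49 and 8.43 in control cortex. The groups overlapped for both. The change in Sfpq-/- against control cortex was 0.02 for Junb (95% interval -0.21 to 0.26) and 0.09 for Jund (95% interval -0.09 to 0.26). Neither interval reaches the change of -0.30 seen for Jun. Against Sfpq+/- cortex the changes were 0.15 for Junb (-0.09 to 0.39) and 0.00 for Jund (-0.17 to 0.18). The difference between Jun and its paralogs was not tested.

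**Figure D2:**
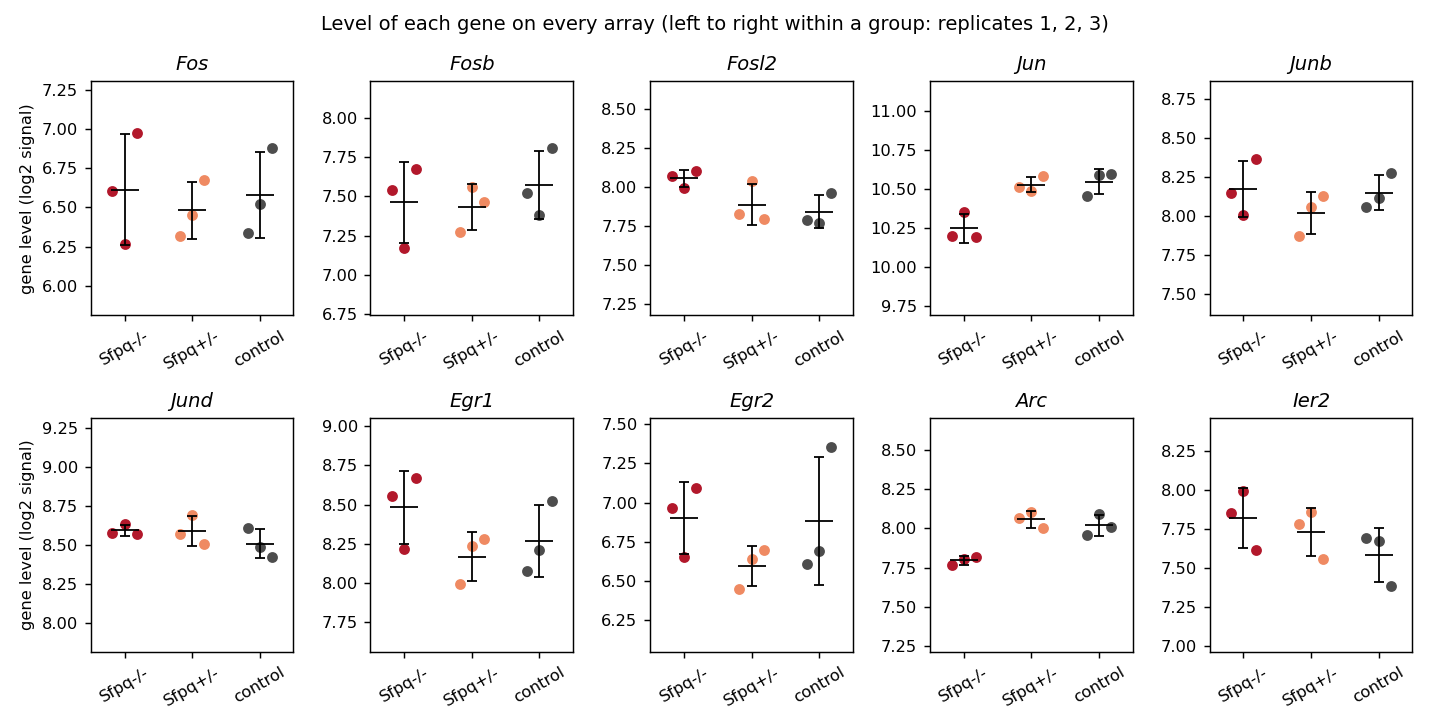
Log2 gene level (vertical axis, the same span in each panel) on each of the 9 arrays for the 10 genes, by group, with the group mean (horizontal bar) and SD (n = 3, error bars). Jun and Arc have all Sfpq-/- arrays below the other 6, and Fos, Egr1 and Egr2 have wide spreads within groups.

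Jun was read by 24 probe sets, all of which were kept. All 24 were lower in Sfpq-/- than in control cortex, with changes between -0.62 and -0.00079 and a median of -0.29 on the log2 scale. The Sfpq-/- arrays lay below all control arrays in 13 of the 24, where 7.4% of all probe sets did so. Against Sfpq+/- cortex, 23 of 24 were lower and 15 had separate arrays, with a background of 8.97%. In Sfpq+/- against control cortex 10 were higher and 14 lower, and 1 had Sfpq+/- arrays below the controls, where 5.3% of all probe sets did. The brightest Jun probe set had 12.91, 12.97 and 13.00 in Sfpq-/- cortex, 13.30, 13.21 and 13.18 in Sfpq+/- cortex and 13.08, 13.09 and 13.19 in control cortex. Its change against control, -0.16, was smaller than that of the gene mean. Probe sets of 1 gene share their RNA and are not replicates. No single Jun probe set passed the threshold over all 628415 probe sets in this comparison, where 1.75% of probe sets did, and the smallest adjusted p was 0.155. Of all 88 kept probe sets of the 10 genes, 0 passed by limma in any of the 3 comparisons, where 1.93% of all probe sets passed against Sfpq+/- cortex and 0 passed in Sfpq+/- against control cortex. Without control array 3, 1 probe set of Egr2 passed as higher against control (1.19, adjusted p = 0.0438). Against control cortex, 10 of the 24 Jun probe sets had an unadjusted p under 0.05, where 10.7% of all probe sets did.

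**Figure D3:**
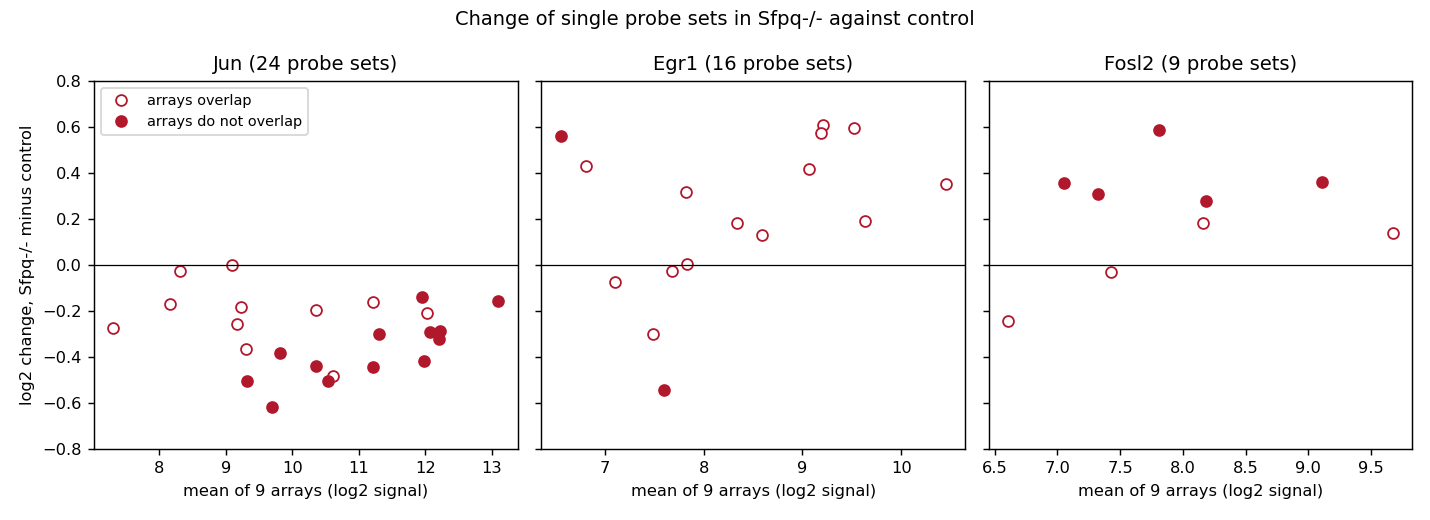
Log2 change of single probe sets in Sfpq-/- against control cortex (vertical axis) by their mean log2 signal over 9 arrays (horizontal axis) for Jun, Egr1 and Fosl2. Filled points have Sfpq-/- arrays that do not overlap the control arrays. All 24 Jun points lie below 0, Egr1 has 12 above and 4 below, and Fosl2 has 7 above and 2 below.

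Of the Fos family, which binds DNA only with a partner, none passed in any comparison. Fos had levels of 6.60, 6.27 and 6.97 in Sfpq-/- cortex, 6.32, 6.45 and 6.68 in Sfpq+/- cortex and 6.34, 6.52 and 6.88 in control cortex. Array 3 was the highest in each group, and the groups overlapped almost fully. The change was 0.03 against control (95% interval -0.37 to 0.43) and 0.13 against Sfpq+/- cortex (-0.27 to 0.53), so shifts up to about the size of the Jun fall in either direction lie within these intervals. Sfpq+/- and control cortex differed by -0.10 (-0.50 to 0.30).

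Fosb, a paralog that marks sustained stimulation through its stable short form, had 7.54, 7.17 and 7.67 in Sfpq-/- cortex, 7.27, 7.56 and 7.46 in Sfpq+/- cortex and 7.52, 7.38 and 7.81 in control cortex. These overlapped in all comparisons, with changes of -0.11 against control, 0.03 against Sfpq+/- and -0.14 for Sfpq+/- against control. The gene mean averages over probe sets, and the long and short forms of Fosb were not separated here. Of its 4 kept probe sets, 1 was higher and 3 lower than in control cortex, with changes between -0.44 and 0.15. In 1 of them all Sfpq-/- arrays lay below the controls, where 7.4% of all probe sets did.

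Fosl2, which encodes the Fos relative Fra-2, had 8.07, 7.99 and 8.10 in Sfpq-/- cortex, 7.83, 8.04 and 7.79 in Sfpq+/- cortex and 7.79, 7.77 and 7.96 in control cortex. All Sfpq-/- arrays were above all control arrays, whereas Sfpq+/- array 2 reached into the Sfpq-/- range. The change of 0.21 against control (SE 0.0886, 95% interval 0.02 to 0.41) did not pass (limma adjusted p = 0.163), nor did 0.17 against Sfpq+/- cortex (limma adjusted p = 0.299). Of its 9 kept probe sets, 7 were higher and 2 lower than in control cortex, and 5 had all Sfpq-/- arrays above the controls, where 7.65% of all probe sets did. With probe sets above the 75th percentile only, the change was 0.25 with an adjusted p of 0.0403, and with array weights it was 0.27 with an adjusted p of 0.0191. The array weights lean on Sfpq-/- array 1 (2.99) and control array 2 (3.18).

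Egr1, a zinc finger factor induced through SRF and used as an activity marker, had 8.56, 8.22 and 8.67 in Sfpq-/- cortex, 7.99, 8.23 and 8.28 in Sfpq+/- cortex and 8.07, 8.21 and 8.52 in control cortex. Arrays 1 and 3 of Sfpq-/- were above all others, and array 2 lay among the Sfpq+/- and control arrays. The change was 0.21 against control (SE 0.142, 95% interval -0.10 to 0.53, limma adjusted p = 0.417) and 0.31 against Sfpq+/- cortex (SE 0.142, 95% interval -0.00027 to 0.63, limma adjusted p = 0.222). Sfpq+/- and control cortex differed by -0.10 (95% interval -0.41 to 0.21). With array weights, which called 4609 of all genes against control and 3635 against Sfpq+/- cortex, Egr1 passed as higher against control (0.30, limma adjusted p = 0.0448) and against Sfpq+/- cortex (0.35, adjusted p = 0.0374).

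The 16 kept probe sets of Egr1 disagreed. Against control cortex 12 were higher and 4 lower, with changes between -0.54 and 0.61. The 6 probe sets with the highest signal were all higher, by 0.19 to 0.61, and the brightest had 10.74, 10.33 and 11.21 in Sfpq-/- cortex, 9.86, 10.18 and 10.45 in Sfpq+/- cortex and 9.94, 10.24 and 11.06 in control cortex. In that probe set, control array 3 was close to the highest Sfpq-/- array. Of the 16, 1 had all Sfpq-/- arrays below the controls and 1 had all above, where 7.4% and 7.65% of all probe sets did. The first was lower by 0.54, with an adjusted p of 0.15 by limma over all probe sets. The other was higher by 0.56, with an adjusted p of 0.275 by limma. The position of these probe sets in the gene was not used here, and the gene mean combines both directions.

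Egr2, a close paralog of Egr1 best known from hindbrain segments and Schwann cells, had 6.96, 6.65 and 7.09 in Sfpq-/- cortex, 6.45, 6.64 and 6.69 in Sfpq+/- cortex and 6.60, 6.69 and 7.35 in control cortex. The single highest value was that of control array 3, and the groups overlapped. The changes were 0.02 against control (95% interval -0.38 to 0.42), 0.31 against Sfpq+/- cortex (-0.10 to 0.71) and -0.29 for Sfpq+/- against control (-0.69 to 0.11). All 5 kept probe sets were higher in Sfpq-/- than in Sfpq+/- cortex, and all 5 were lower in Sfpq+/- than in control cortex, with 1 of 5 (background 7.95%) and 0 of 5 having separate arrays.

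Arc, whose protein acts at synapses in AMPA receptor trafficking, had 7.76, 7.80 and 7.82 in Sfpq-/- cortex, 8.07, 8.11 and 8.002 in Sfpq+/- cortex and 7.96, 8.09 and 8.01 in control cortex. As for Jun, every Sfpq-/- array was below every other array. Arc fell by 0.26 on the log2 scale against Sfpq+/- cortex (SE 0.0700, 95% interval -0.42 to -0.11, limma adjusted p = 0.0322). Against control cortex the change of -0.22 (95% interval -0.38 to -0.07) did not pass the threshold, with an adjusted p of 0.0652, and Sfpq+/- and control cortex differed by 0.04 (-0.11 to 0.19). Leaving out 1 array gave adjusted p-values against Sfpq+/- cortex of 0.105, 0.127 and 0.0535 without Sfpq+/- 1, 2 and 3 and 0.125 without Sfpq-/- 1, with changes from -0.29 to -0.24. The call against Sfpq+/- cortex also ended with an Xist term for embryo sex (adjusted p = 0.0663), with the 6 compared arrays alone (0.0678) and with no filter on dim probe sets (0.051). The change against control had an adjusted p of 0.047 after quantile normalization and 0.00342 with array weights. The summed signal of cortical neuron markers was lower on the same Sfpq-/- arrays, though only 2 of 9 fell against control, as given above. Their part in the change of Arc was not tested.

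The lower Arc level came from 3 of its 5 probe sets. These were at -0.46, -0.43 and -0.23 against control cortex, while the 2 brightest were at -0.0047 and 0.0036. The brightest had 9.72, 9.45 and 9.67 in Sfpq-/- cortex, 9.40, 9.67 and 9.63 in Sfpq+/- cortex and 9.63, 9.56 and 9.66 in control cortex, with full overlap. In the probe set at -0.46, the values were 6.96, 7.12 and 7.40 in Sfpq-/- cortex, 7.49, 7.97 and 7.59 in Sfpq+/- cortex and 7.61, 7.59 and 7.68 in control cortex, with all Sfpq-/- arrays lowest. The median of the probe sets as gene level gave -0.53 against Sfpq+/- cortex with an adjusted p of 0.0183, and -0.37 against control cortex with an adjusted p of 0.094.

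Ier2, which encodes a nuclear early-response protein, had 7.85, 7.995 and 7.62 in Sfpq-/- cortex, 7.78, 7.86 and 7.56 in Sfpq+/- cortex and 7.70, 7.67 and 7.39 in control cortex. Array 3 was the lowest in every group, opposite to Fos, and the groups overlapped. The change was 0.24 against control (SE 0.123, 95% interval -0.03 to 0.51, limma adjusted p = 0.275), 0.09 against Sfpq+/- and 0.15 for Sfpq+/- against control cortex. All 3 of its probe sets were higher in Sfpq-/- than in control cortex, and 0 had separate arrays.

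The genes differed in how much they varied between arrays of 1 group. The pooled SD within groups was 0.281 for Egr2, 0.279 for Fos, 0.214 for Fosb and 0.21 for Egr1 on the log2 scale, at percentiles 97.3, 97.2, 90.5 and 89.8 of all genes. It was 0.0755 for Jun and 0.0518 for Arc, at percentiles 17.5 and 4.95, with 0.0799 for Jund, 0.103 for Fosl2, 0.145 for Junb and 0.174 for Ier2. The 2 genes with a call in any comparison were thus the 2 with the smallest spread. A change of the size seen for Jun would be about as large as 1 within-group SD for Fos or Egr2.

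Certain arrays were high or low for several of the genes at once. Among Sfpq-/- arrays, array 3 was the highest for Fos, Fosb, Fosl2, Junb, Egr1, Egr2 and Arc, 7 of 10, and it was the highest for 26.9% of all genes. Sfpq-/- array 2 was the lowest for 6 of the 10, against 28.9% of all genes. Among controls, array 3 was the highest for 7 of 10 and array 1 the lowest for 6, against 28.5% and 31.8% of all genes. In Sfpq+/- cortex the shares were nearer to those of all genes: array 1 was the lowest for 5 of 10, against 42.7%, and arrays 2 and 3 were each the highest for 5 of 10, against 39.7% and 34.2%.

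The dimmest genes of the array leaned the same way on these arrays. Over the 1685 genes of the dimmest 10%, with a mean level up to 6.75, the median deviation from the group mean was 0.00265, -0.0845 and 0.0818 on Sfpq-/- arrays 1, 2 and 3, -0.0672, 0.00149 and 0.0721 on Sfpq+/- arrays, and -0.0917, 0.0194 and 0.0801 on control arrays. Fos lies in that class and deviated by -0.01, -0.35 and 0.36 on the Sfpq-/- arrays, -0.17, -0.03 and 0.20 on the Sfpq+/- arrays, and -0.24, -0.06 and 0.30 on the control arrays. Its deviations were larger than the median ones on all 9 arrays and opposite in sign on 3 of them, where the median ones were smallest. Egr1 and Egr2 lie above that class, at percentiles 48.6 and 11.2 of the level over all genes. Over the brightest 10% of genes the median deviations were 0.0266, 0.0562 and -0.079 on Sfpq-/- arrays 1, 2 and 3. They were -0.003, 0.0252 and -0.0214 on Sfpq+/- arrays and 0.0467, 0.0148 and -0.0594 on control arrays. The part of the lean of the dimmest genes in the spread of Fos, Egr1 and Egr2 was not tested.

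**Figure D4:**
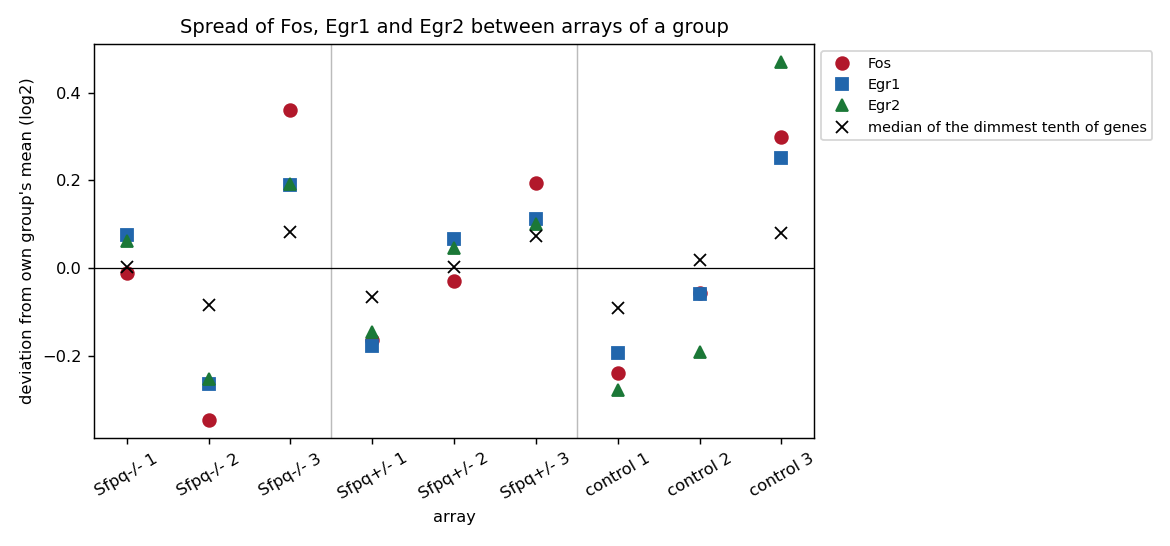
Deviation of Fos, Egr1 and Egr2 from their own group's mean (vertical axis, log2) on each of the 9 arrays (horizontal axis), with the median deviation of the dimmest 10% of genes (crosses). All 3 genes are lowest on Sfpq-/- 2, Sfpq+/- 1 and control 1 within their groups and highest on array 3 of each group, and the crosses follow the same order within each group.

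Genes with profiles most like those of 3 members were sought by the root mean square distance between mean-centred levels over the 9 arrays, among genes whose own range was large enough. For Jun these were Igf2bp2 (0.0434), Antxr1 (0.0434), Cars2 (0.0440), Paxip1 (0.0460) and Sdk1 (0.0461), all lower in Sfpq-/- than in control cortex by 0.21 to 0.31. For Fos they were Il23a (0.0556), Glis1 (0.0592), Prss44 (0.0594), Lrtm2 (0.0628) and Rdh8 (0.0695), with changes against control between -0.02 and 0.06. For Egr1 they were Fbxo2 (0.0674), Zdhhc22 (0.0762), Bmf (0.0767), Gm4922 (0.0801) and Tnfrsf8 (0.0809). None of the other 9 members was among the 5 nearest genes of Jun, Fos or Egr1. There were 15977 candidates for Jun, 11227 for Fos and 11722 for Egr1. With so many candidates for 5 places, that absence does not show whether the members vary together. The likeness is a description over 9 arrays that share their processing. Since the genes were picked by distance to the member's own levels, their similar changes against control follow from the choice.

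The other leucine zipper genes that can pair with Jun or Fos proteins were read next, 12 of 13 having enough probe sets. In Sfpq-/- against control cortex 0 of 12 passed by limma, where 12.1% of all genes did, and 0 had an unadjusted p under 0.05, where 24.2% did, with a median change of -0.04 against 0.03 over all genes. The smallest p-values were those of Mafg, a small MAF protein (-0.15, limma adjusted p = 0.246), Jdp2, a repressor of AP-1 (-0.18, adjusted p = 0.317), and Atf3, a stress-induced factor (0.13, adjusted p = 0.527). Against Sfpq+/- cortex, 0 of 12 passed and 1 had an unadjusted p under 0.05, where 11.8% and 22.6% of all genes did. That gene was Atf7, a relative of Atf2 (-0.21, limma adjusted p = 0.2), followed by Atf3 (0.19) and Fosl1, which encodes Fra-1 (0.20). Between Sfpq+/- and control cortex 0 of 12 passed and 1 had an unadjusted p under 0.05, where 0% and 4.24% of all genes did. The values were 0.21 for Atf7, -0.21 for Fosl1 and -0.16 for Jdp2.

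Other immediate-early genes changed in both directions. Of 40 listed, 39 were tested. In Sfpq-/- against control cortex 8 rose, 4 fell and 27 did not pass, where 5.98% of all genes rose and 6.12% fell; the median change was 0.07 against 0.03 over all genes. Against Sfpq+/- cortex 7 rose, 6 fell and 26 did not pass, against 4.58% higher and 7.25% lower for all genes. Without Sfpq+/- array 1, 6 of 39 passed against Sfpq+/- cortex. In Sfpq+/- against control cortex 0 of 39 passed and 2 had an unadjusted p under 0.05 (background 4.24%), with the smallest p for Nr4a3 (0.38), Inhba (0.22) and Egr3 (-0.25). On the same Sfpq-/- arrays the summed signal of microglial markers was higher, and the sums of intermediate progenitor and cortical neuron markers were lower. Only 2 of 9 cortical neuron markers fell, with a median change of -0.0095, as given above. The part of these markers in the counts was not tested.

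Rgs2, a regulator that shortens G protein signals, had 10.50, 10.37 and 10.46 in Sfpq-/- cortex, 9.73, 9.72 and 9.68 in Sfpq+/- cortex and 9.82, 9.75 and 9.55 in control cortex. All Sfpq-/- arrays were well above the rest. It rose by 0.73 on the log2 scale against control cortex (SE 0.0837, limma adjusted p = 0.000178) and by 0.73 against Sfpq+/- cortex (limma adjusted p = 0.000159). Trib1, a pseudokinase adaptor for protein degradation, rose by 0.52 against control, and Per1, a repressor of the circadian clock, rose by 0.49. Nptx2, a secreted protein of excitatory synapses, rose by 0.55. Dusp5, a phosphatase that acts on ERK, rose by 0.38, and Klf10, a TGF-beta inducible zinc finger factor, by 0.34. The call for Klf10 ended without control array 1 (adjusted p = 0.0612) or Sfpq-/- array 1 (adjusted p = 0.0527), and the calls for Rgs2, Trib1, Per1, Nptx2 and Dusp5 against control held when each of the 6 arrays was left out in turn. The call for Klf10 also ended with no filter on dim probe sets (adjusted p = 0.132), and that for Dusp5 ended with probe sets above the 75th percentile, which gave a change of 0.23 (adjusted p = 0.113). Dusp6, another ERK phosphatase, rose by 0.50 against control cortex (limma adjusted p = 0.0315) and by 0.60 against Sfpq+/- cortex. Against Sfpq+/- cortex its adjusted p was 0.052 without Sfpq+/- array 1 and 0.05 without Sfpq-/- array 1. Its call against control was not followed singly under other settings.

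Gem, a small GTPase that restrains calcium channels, had 6.91, 6.97 and 6.80 in Sfpq-/- cortex, 7.38, 7.62 and 7.52 in Sfpq+/- cortex and 7.40, 7.59 and 7.38 in control cortex. The Sfpq-/- arrays were the lowest 3. It fell by 0.56 against control cortex (SE 0.0905, limma adjusted p = 0.0018) and by 0.61 against Sfpq+/- cortex (limma adjusted p = 0.000937). Ccn1, a matricellular protein and target of YAP and SRF, fell by 0.47 against control cortex. Nr4a3, an orphan nuclear receptor, had 8.13, 7.95 and 7.94 in Sfpq-/- cortex, 8.90, 8.94 and 8.63 in Sfpq+/- cortex and 8.498, 8.28 and 8.55 in control cortex, so that all 3 groups stood apart. Sfpq+/- and control arrays did not overlap for 12.5% of all genes, and that change of Nr4a3, 0.38, did not pass (limma adjusted p = 0.886). In Sfpq-/- cortex Nr4a3 fell by 0.44 against control (limma adjusted p = 0.0218) and by 0.82 against Sfpq+/- cortex (limma adjusted p = 0.000419). Homer1, a scaffold whose short form is activity induced, fell by 0.39 against control (limma adjusted p = 0.0356) and by 0.48 against Sfpq+/- cortex. The call for Homer1 against Sfpq+/- cortex did not hold with the median of its probe sets as gene level, which gave 0.09, and its adjusted p was 0.0517 without Sfpq+/- array 1. The calls of Nr4a3 and Homer1 against control were not followed singly under other settings.

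**Figure D5:**
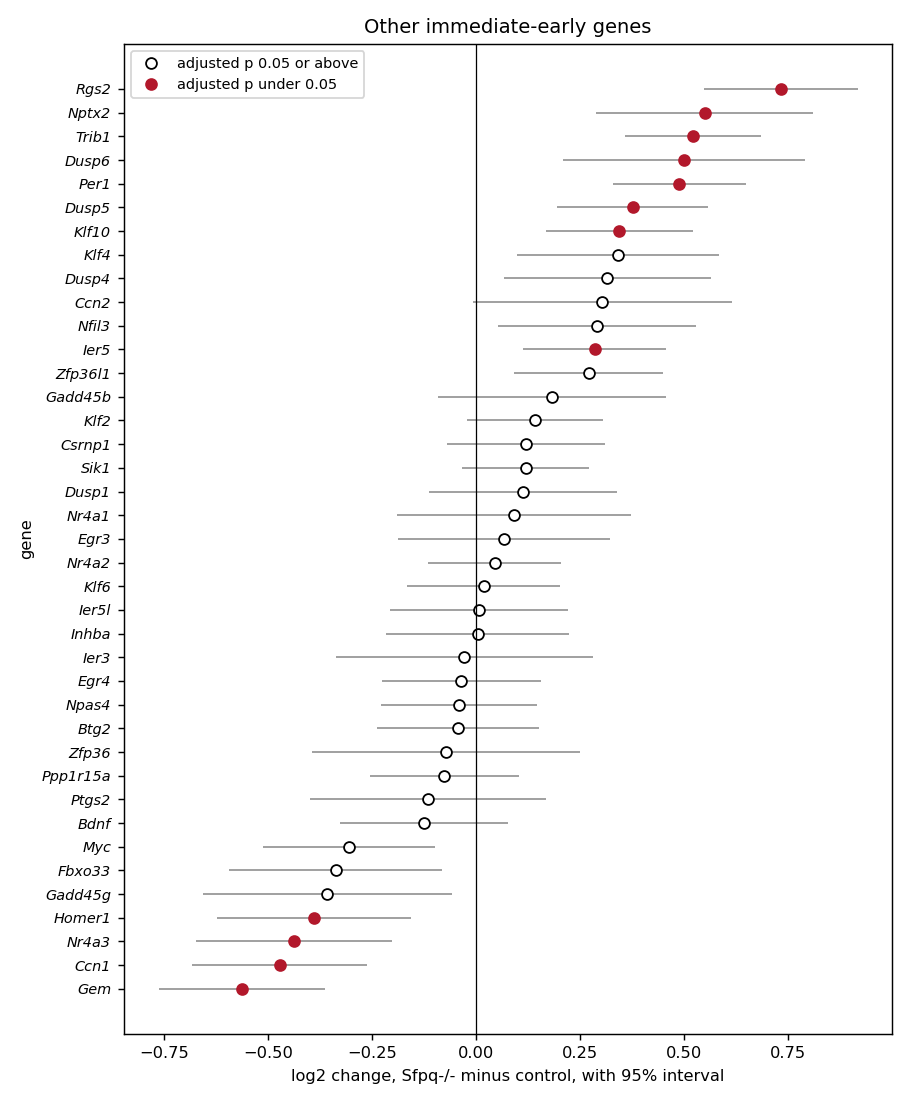
Log2 change in Sfpq-/- against control cortex (horizontal axis) with its 95% interval for the 39 other immediate-early genes tested (vertical axis), ordered by change. Filled points have an adjusted p under 0.05: 8 lie above 0, led by Rgs2 at 0.73, and 4 below, led by Gem at -0.56.

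Of the genes that act upstream of immediate-early transcription, 24 of 25 were tested. In Sfpq-/- against control cortex 1 rose, 2 fell and 21 did not pass, where 5.98% of all genes rose and 6.12% fell. In the comparison with Sfpq+/- cortex 1 rose, 3 fell and 20 did not pass, against 4.58% higher and 7.25% lower for all genes. Both counts are near the shares over all genes and single out no change of the list. Between Sfpq+/- and control cortex 0 passed and 2 had an unadjusted p under 0.05 (background 4.24%). The genes that passed in either comparison were Mapk10, Camk4, Rps6ka1 and Rps6ka5.

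Mapk10, which encodes the neural JNK3 that can phosphorylate Jun, had 8.62, 8.73 and 8.70 in Sfpq-/- cortex, 9.86, 9.67 and 9.45 in Sfpq+/- cortex and 9.70, 9.45 and 9.46 in control cortex. The Sfpq-/- arrays lay far below the other 6. It fell by 0.85 on the log2 scale against control cortex (SE 0.109, limma adjusted p = 0.000389), which is 1.80-fold lower, and by 0.97 against Sfpq+/- cortex (limma adjusted p = 0.000139). The arrays measured RNA, and neither the JNK3 protein nor phosphorylated Jun was measured.

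Camk4, a calcium-dependent kinase that can activate CREB, fell by 0.36 against control cortex (limma adjusted p = 0.0101) and by 0.54 against Sfpq+/- cortex (adjusted p = 0.00073). Its call against control ended without Sfpq-/- array 1 (adjusted p = 0.0562), with the median of its probe sets (0.107) and with no filter on dim probe sets (0.0574). It also ended with probe sets above the 75th percentile, which gave a change of -0.20 (adjusted p = 0.0738). The summed signal of cortical neuron markers was lower on the same arrays, though only 2 of 9 fell against control. Their part in the changes of Mapk10 and Camk4 was not tested. Rps6ka1, the kinase RSK1 of the ERK pathway, rose by 0.31 against control cortex (limma adjusted p = 0.034) and by 0.33 against Sfpq+/- cortex (adjusted p = 0.0249). With arrays left out in turn, the call against control held only without Sfpq-/- array 3, with adjusted p-values of 0.0533, 0.104 and 0.117 without control arrays 1, 2 and 3 and 0.0927 and 0.087 without Sfpq-/- arrays 1 and 2. The call against Sfpq+/- cortex also held only without Sfpq-/- array 3, with adjusted p-values between 0.0534 and 0.0934 otherwise. With the 6 compared arrays alone the adjusted p for Rps6ka1 was 0.0854 against control and 0.0529 against Sfpq+/- cortex. Its call against control also ended with no filter on dim probe sets (0.0522) and with at least 1 kept probe set (0.056), and that against Sfpq+/- cortex with an Xist term (0.0554). Rps6ka5, the kinase MSK1, averaged 8.32 in Sfpq-/-, 8.67 in Sfpq+/- and 8.30 in control cortex. Against control cortex its change was 0.02 (limma adjusted p = 0.927). It fell by 0.34 only against Sfpq+/- cortex (limma adjusted p = 0.0347). There the adjusted p-values were 0.12 and 0.145 without Sfpq+/- arrays 1 and 2 and 0.0666 and 0.0943 without Sfpq-/- arrays 1 and 3. Its call also ended with no filter on dim probe sets (0.0785), with at least 1 kept probe set (0.0604) and with the 6 compared arrays alone (0.0602). Without Sfpq-/- array 1 the count against control was 1 of 24, and without Sfpq-/- array 1, Sfpq+/- array 1 or Sfpq+/- array 2 the count against Sfpq+/- cortex was 2 of 24. In Sfpq+/- against control cortex the smallest p-values were those of Rps6ka5 (0.37), Camk4 (0.18) and Mapk8, which encodes JNK1 (0.17), and none passed.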

How the data were processed

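The authors deposited log2 signals per probe set. The submitters' processing notes name Affymetrix Expression Console, version 1.2.0.20, as the software, and the design text names the Exon Array Computational Tool. Methods of background correction and normalization were not given in the sources used here. No further normalization was applied. Of 1256831 probe sets, 318760 had 1 gene symbol in the platform annotation and 6684 had several, which were used in no gene. The rest are unnamed here.

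Probe sets with a mean over all 9 arrays above the median of all means (5.64) were kept, 628415 in all. A gene level is the mean of its kept probe sets, with at least 3. All 9 arrays entered 1 model per gene with 3 group means (limma 3.58.1, R 4.3.3, lmFit and eBayes), with Benjamini-Hochberg adjustment over 16854 genes calling adjusted p under 0.05. Single probe sets went through the same model, adjusted over all 628415. The model was also run on simulated data, with independent noise and planted changes larger than those called here for Jun and Arc. That run does not bear on changes of their size or on deviations shared by arrays. A change is the first-named group minus the second, on the log2 scale. Summed marker signals are linear.

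All 10 genes are named. In each list of other genes those that passed are named, up to 8 by smallest adjusted p, or the 3 of smallest p where fewer than 3 passed. Some genes named in a comparison are also given in another. The genes and lists were chosen with earlier results of these data known. Alternatives were the median of probe sets, other filters, quantile normalization or centring, array weights, an Xist term, a replicate block, the 6 compared arrays alone, and leaving out each array. Array weights were estimated gene by gene, since the default estimate did not converge. They were 2.99 for Sfpq-/- array 1 and 3.18 for control array 2, both with high Xist signal, and 0.365 to 1.52 for the others. Calls with array weights against control therefore rest largely on these 2 arrays. Deviations of arrays with the same replicate number correlated between -0.0553 and 0.574, and those of different numbers between -0.533 and 0.363. Arrays numbered 3 all correlated positively with each other (0.307, 0.574 and 0.303), so they shared a pattern. The correlations were uneven between numbers, so the numbers were not taken as pairs in the main model.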

Additional observations from a re-analysis of the deposited data

How the results depend on the processing

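Only 3 arrays per group limit these results. The calls for Jun against control held under 8 of 10 other settings and 2 of 6 omissions of an array, those for Jun against Sfpq+/- under 5 of 10 and 1 of 6, and those for Arc against Sfpq+/- under 7 of 10 and 2 of 6, with the direction kept in all. Of the 10 genes, the count against control was 1 and became 0 with the median of probe sets or the 6 compared arrays alone, 2 with probe sets above the 75th percentile, with quantile normalization or with the replicate block, and 4 with array weights (Jun and Arc lower, Fosl2 and Egr1 higher). The replicate block added Ier2 (adjusted p = 0.0455) and changed no other call of the 10. Against Sfpq+/- the count was 2 and became 1 with the median or with at least 1 kept probe set, 0 with no filter, an Xist term or the 6 compared arrays alone, and 3 with array weights, which added Egr1 as higher (0.346, adjusted p = 0.0374). Omitting an array gave 0 to 1 against control and 0 to 2 against Sfpq+/-. Array weights called 20 of the other immediate-early genes (12 otherwise), 8 and 7 of the upstream genes (3 and 4 otherwise) and 4609 and 3635 of all genes (2040 and 1994 otherwise) against control and Sfpq+/-. The median called 8 other immediate-early genes against Sfpq+/- (13 otherwise), no filter called 1 upstream gene against control and the 6 compared arrays alone called 2 against Sfpq+/-. Probe sets above the 75th percentile called 1 gene of all in Sfpq+/- against control (0 otherwise). Omitting an array gave 6 to 13 other immediate-early genes against Sfpq+/-, 1 to 3 and 2 to 4 upstream genes, 1311 to 2453 of all genes against control, 0 to 1 in Sfpq+/- against control, and 0 to 1 probe sets of the 10 genes against control. The cause of these shifts was not tested.

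Signs turned for changes that had not passed. Against control, an Xist term gave -0.0435 for Fos, -0.0128 for Junb and -0.0838 for Egr2, array weights gave 0.0508 for Fosb, and no filter gave -0.00515 for Egr2. Against Sfpq+/-, Jund came to -0.0166 with no filter, -0.0229 with array weights and -0.0118 with an Xist term, and the median gave -0.106 for Ier2 and, for Homer1, which had passed, 0.0859. In Sfpq+/- against control, the median gave 0.0495 for Fos and 0.00635 for Egr1, and an Xist term gave -0.00638 for Fosl2. Omitting an array spanned 0 against control for Fos (-0.146 to 0.208), Fosb (-0.214 to 0.0372), Junb (-0.0709 to 0.108), Egr2 (-0.121 to 0.254) and Atf3 (-0.00448 to 0.209). It did so against Sfpq+/- for Fos (-0.0476 to 0.306), Fosb (-0.0733 to 0.178) and Jund (-0.0383 to 0.0550), and in Sfpq+/- against control for Fos (-0.219 to 0.0513), Fosl2 (-0.0293 to 0.108), Jun (-0.0636 to 0.00642), Egr1 (-0.197 to 0.0258) and Sfpq (-0.0188 to 0.216).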
